A study of Mus musculus with 24 samples.

Results

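Primary cortical neurons exposed to the BET inhibitor IBET858 for 2 h were set against cultures given the solvent DMSO for the same time. The members are the 3 arrays labelled IBET858 and the 3 arrays labelled DMSO at 2 h, 6 of the 24 arrays of the study, chosen by their labels alone, and all 18194 genes on them were described. The neurons came from mice at embryonic day 18 (E18) and had been in culture for 1 week. IBET858 was used at 1 µM and BDNF, where it was added, at 50 ng per ml. The other groups drawn on here, also with 3 arrays each, are both agents together at 2 h with BDNF alone at 2 h as its reference, and IBET858 at 12 h with DMSO at 12 h as its reference. The labels give no strain, mutation or transgene for any group. Replicates carry numbers, but nothing states that each was its own culture or animal, and the p-values describe a spread between arrays that may be technical.

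BET proteins are readers of acetylated histones: their paired bromodomains dock on acetylated tails at active promoters and enhancers, and there they help to bring in the elongation factor P-TEFb, a kinase that releases paused RNA polymerase II. IBET compounds occupy the bromodomain pocket and displace the proteins from chromatin. P-TEFb is itself held in reserve by the small nuclear RNA 7SK together with the inhibitor protein HEXIM1, whose gene is widely used as a marker that responds to BET inhibition. In neurons, many activity-regulated genes are known to be controlled at the release of paused polymerase.

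Values are log2 intensities relative to the median of each probe set over all 24 arrays, so 0 means the middle of the whole study and 1 means double the intensity. They show differences between arrays and not how abundant a transcript was, and whether marker genes of the labelled neurons were well above background could not be read from them. The number of arrays limits the precision. Over all genes, the deviations of an array from its group's mean had a standard deviation of 0.0775 to 0.0846 for the IBET858 arrays. Among the DMSO arrays it was 0.178 for replicate 1, which stood apart, against 0.100 and 0.116 for the others. The Affymetrix control probe sets for the transferrin receptor were also low on DMSO replicate 1, at -1.50 at the 5′ end and -0.63 at the 3′ end, while those for Gapdh and actin showed no such gap between their ends. Gene calls, total counts, list counts for IBET858 against DMSO at 2 h and changes of effect were therefore also computed without that array. A changed call is given beside the gene. Counts over 2-fold, median sizes of called changes, array overlaps, unadjusted counts and promoter motif shares used all arrays only. So did the counts of called genes shared with the other comparisons and the list counts for changes of effect.

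Falls outnumbered rises after 2 h of the inhibitor alone, and most changes were small. With limma, 1026 genes were higher (5.64% of those tested) and 1686 lower (9.27%) at an adjusted p under 0.05. The median size of a called change was 0.36 for the rises and -0.36 for the falls on the log2 scale. Changes over 2-fold were fewer, 97 up and 56 down, so the largest responses were more often rises although falls were more numerous. Among the called genes, 996 of the rises and 1638 of the falls had no overlap between the IBET858 and DMSO arrays. Over all genes tested, 15.5% had every IBET858 array above every DMSO array and 15.3% had every one below.

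Leaving out DMSO replicate 1 gave 902 higher (4.96%) and 1636 lower genes (8.99%). Of the rises, 776 were called both ways, 250 were lost and 126 were gained. Of the falls, 1404 were called both ways, 282 were lost and 232 were gained. In the plot of the fold change with all arrays against that without DMSO replicate 1, the genes with large changes lie near the diagonal, and the genes that move most are those with no call.

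**Figure D1:**
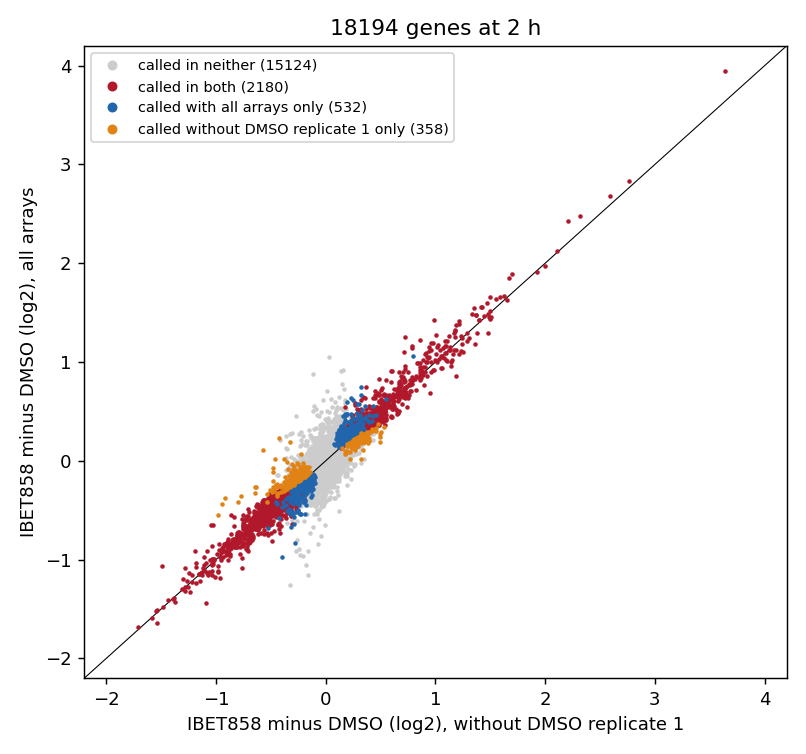
Each point is 1 of 18194 genes; the y axis is the IBET858 minus DMSO difference at 2 h (log2) with all arrays and the x axis the same difference without DMSO replicate 1, with the diagonal drawn. The 2180 genes called both ways lie along the diagonal, while 532 genes were called with all arrays only and 358 without that array only.

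Histone genes led the rises. H2bc18, which encodes a histone H2B, stood at 1.64, 1.49 and 1.68 on the IBET858 arrays, against -2.96, -2.09 and -1.99 on the DMSO arrays. The groups lay far apart, and DMSO replicate 1 was the lowest array. The rise was 15.4-fold, 3.95 ± 0.23 on the log2 scale (± gives the model's standard error, with n = 3 arrays per group throughout; limma adjusted p = 5.4e-11), and 3.64 without that array. Because H2bc18, H3c4 and H3c11 are histone genes, H3f3b is a histone H3 gene expressed outside S phase, and Hexim1 is the P-TEFb inhibitor gene, the 250 bases before their starts are shown to let the proximal promoters of the leading rises be compared. The sequences are from RefSeq (assembly GRCm38.p6), 5′ to 3′ on the gene's strand, and capitals mark CCAAT and TATAAA on either strand (ATTGG and TTTATA on the other), without overlaps between the motifs.
H2bc18 (chr3:96269450-96269699, + strand): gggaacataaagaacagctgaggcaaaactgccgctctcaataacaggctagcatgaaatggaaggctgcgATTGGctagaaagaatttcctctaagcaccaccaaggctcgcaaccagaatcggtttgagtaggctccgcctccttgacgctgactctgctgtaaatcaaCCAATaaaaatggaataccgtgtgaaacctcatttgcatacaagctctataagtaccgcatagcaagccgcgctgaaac
H3c4 (chr13:23575513-23575762, + strand): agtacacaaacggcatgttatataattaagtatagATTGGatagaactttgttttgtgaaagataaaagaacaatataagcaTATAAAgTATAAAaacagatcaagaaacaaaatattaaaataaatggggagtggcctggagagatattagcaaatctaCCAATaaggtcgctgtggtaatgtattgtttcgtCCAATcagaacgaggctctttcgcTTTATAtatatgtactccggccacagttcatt
H3c11 (chr13:21783398-21783647, - strand): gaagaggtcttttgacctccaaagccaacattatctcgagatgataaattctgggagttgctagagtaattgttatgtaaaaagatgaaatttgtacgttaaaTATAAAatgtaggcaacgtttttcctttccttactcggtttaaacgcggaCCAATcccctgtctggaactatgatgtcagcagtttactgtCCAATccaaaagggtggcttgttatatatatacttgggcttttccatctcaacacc
H3f3b (chr11:116024505-116024754, - strand): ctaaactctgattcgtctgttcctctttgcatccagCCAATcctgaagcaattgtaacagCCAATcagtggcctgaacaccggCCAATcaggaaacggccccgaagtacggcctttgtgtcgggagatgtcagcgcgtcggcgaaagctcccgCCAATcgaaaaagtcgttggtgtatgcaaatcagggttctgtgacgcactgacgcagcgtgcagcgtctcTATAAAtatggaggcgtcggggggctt
Hexim1 (chr11:103116075-103116324, + strand): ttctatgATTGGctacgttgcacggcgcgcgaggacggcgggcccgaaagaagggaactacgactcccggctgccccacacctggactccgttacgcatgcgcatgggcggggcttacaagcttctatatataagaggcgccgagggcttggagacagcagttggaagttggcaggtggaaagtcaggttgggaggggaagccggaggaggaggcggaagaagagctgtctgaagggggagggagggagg

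The 5 windows hold between 1 and 4 copies of CCAAT, with 4 in H3f3b, 3 in H3c4, 2 each in H2bc18 and H3c11, and 1 in Hexim1. TATAAA is in the windows of H3c4, H3c11 and H3f3b. CCAAT was found in 61.3% of the windows of genes called higher over 2-fold (46 of the 75 genes with a window in the table), in 51.3% for all genes called higher (820 genes) and in 483 of the 1379 windows of genes called lower. Over all tested genes with a window (14453) the share was 39.4%. TATAAA was in 20% of the windows of genes higher over 2-fold, against 10.5% over all tested genes, and in 7.25% for genes called lower. For the GC-box letters GGGCGG the shares were 67.8% for genes called higher, 63.2% for genes called lower and 53.4% over all tested genes. The cAMP response element TGACGTCA was in 3.41% for genes called higher, 3.63% for genes called lower and 2.50% over all tested genes. The heat shock element and the amino acid response element TGATGCAAT were each in under 1% of the windows of every set. A match to such letters describes the sequence and is not a known site of any factor.

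Of 25 linker and core histone genes measured, 14 rose and 0 fell by limma (15 and 0 at an unadjusted p under 0.05), and the median of the list was 0.32, against 0.02 over all genes (15 rose without DMSO replicate 1, median 0.34). Besides the genes shown above, H3c7, another histone H3 gene of the large cluster, rose by 1.56 ± 0.17, and H3f3a, the partner of H3f3b, by 1.06 ± 0.078. For H3f3b the IBET858 arrays read 0.90, 0.96 and 0.85 and the DMSO arrays -0.87, -0.41 and -0.46, a rise of 1.48 ± 0.099. The groups did not overlap, with DMSO replicate 1 again the lowest. Copies of a histone type are close in sequence, and their probe sets may share signal. CCAAT was in the windows of 18 of the 22 histone genes with a window (81.8%).

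Hexim1 was the P-TEFb regulator with the largest change. It stood at 1.44, 1.45 and 1.32 on the IBET858 arrays and at -1.38, -0.94 and -0.88 on the DMSO arrays, a 5.56-fold rise (2.48 ± 0.10, adjusted p = 3.71e-13). Its 2 probe sets rose by 1.79 and 3.16. In all, 5 of 23 genes of the P-TEFb list rose and 3 fell (21.7% and 13%, against 5.64% and 9.27% of all genes), and with members going both ways the median was 0.01. Hexim2, its paralog, was at 0.11, 0.15 and 0.06 with IBET858 and at 0.09, 0.54 and 0.70 with DMSO, so the groups overlapped at DMSO replicate 1. Its call as lower (-0.34, adjusted p = 0.0405) was lost when any of DMSO replicate 2 or 3 or an IBET858 array was left out. Ccnt2, a cyclin partner of the P-TEFb kinase, fell by 0.41 on the log2 scale and Nelfa, a subunit of the pausing factor NELF, by 0.51. The kinase gene Cdk9 differed by -0.12 (adjusted p = 0.204) and the cyclin gene Ccnt1 by -0.18 (adjusted p = 0.0922). Mepce, which caps 7SK, rose by 0.23, and Larp7, which binds it, differed by -0.09 (adjusted p = 0.42). Srsf2, a splicing factor that also binds 7SK, rose by 0.33. The call of Eaf2, a partner of the elongation factor ELL (0.59), was lost without DMSO replicate 1 (0.20, adjusted p = 0.226) and without any 1 of the IBET858 arrays.

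Genes of the basal transcription machinery went both ways. Polr2a, the largest subunit of RNA polymerase II, stood at 0.30, 0.32 and 0.41 with IBET858, against -0.42, -0.33 and -0.44 with DMSO, without overlap, and rose 1.67-fold (0.74 ± 0.072, adjusted p = 1.35e-07). Gtf2b, the general factor TFIIB, rose by 0.64 ± 0.060 and Taf13, a TFIID subunit, by 0.62 ± 0.051. Taf4b, a TFIID subunit related to Taf4, rose by 1.45 ± 0.074, with its 3 probe sets between 0.55 and 2.08. Taf5l, a subunit of the PCAF and SAGA acetyltransferase complexes, fell by 0.84 on the log2 scale, and Taf1a, a subunit of the polymerase I factor SL1, by 0.53. Of the 81 measured genes for Mediator, polymerase II and its general factors, 10 rose and 16 fell (12.3% and 19.8%), and the median was -0.05.

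Among bromodomain genes, 4 of 35 rose and 7 fell. Brd2 read 0.15, 0.14 and 0.11 on the IBET858 arrays and -0.67, -0.57 and -0.46 on the DMSO arrays, a rise of 0.70 ± 0.057. Atad2, an ATPase with a bromodomain, rose by 0.68 ± 0.074 and the chromatin remodelling subunit Baz1a by 0.62 ± 0.083. Brd8, a subunit of the NuA4 acetyltransferase complex, fell by 0.75 (its 6 probe sets between -1.31 and -0.29), Brd7, a subunit of the PBAF remodelling complex, by 0.39 and Baz2a, a nucleolar remodelling subunit, by 0.36. Of 62 enzymes that write or erase histone acetyl and methyl groups 4 rose and 11 fell (6.45% and 17.7%, against 5.64% and 9.27% of all genes), with a median of -0.01. Sirt1, a NAD-dependent deacetylase, was at 0.52, 0.45 and 0.24 with IBET858, against -0.63, -0.70 and -0.83 with DMSO, a 2.18-fold rise (adjusted p = 1.71e-09). Kdm3a, a histone demethylase, also rose (0.42 ± 0.059). The lower genes included Setd1a, a histone H3 methyltransferase (-0.47), the demethylases Kdm6b (-0.39) and Kdm4c (-0.37), and Setdb2 (-0.51), whose call was lost without DMSO replicate 1 (-0.35, adjusted p = 0.138) and without IBET858 replicate 3.

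Several further genes rose over 2-fold with little spread between arrays. Arrdc2, an arrestin-domain adaptor, read 1.35, 1.29 and 1.27 with IBET858 and -0.45, -0.25 and -0.40 with DMSO, a 3.18-fold rise. Frat2, which binds the kinase GSK3 and favours WNT signalling, read 0.68, 0.79 and 0.72 with IBET858 and -0.83, -0.74 and -0.80 with DMSO (1.52 ± 0.055, adjusted p = 6.7e-14). Ccno, an atypical cyclin needed for multiciliated cells, read 1.02, 0.99 and 0.97 with IBET858 and -0.82, -0.43 and -0.43 with DMSO, a 2.94-fold rise. In all 3 genes the 2 groups were separated by more than their own spread, but the highest genes were named only if their arrays did not overlap. Magel2, an imprinted gene of the Prader-Willi region, rose by 1.65 ± 0.099, the ubiquitin ligase gene Trim17 by 1.60 ± 0.13, Gramd1c, a sterol transfer protein, by 1.48 ± 0.12, the Rac and Cdc42 exchange factor Arhgef6 by 1.47 ± 0.14 and Irf8, an interferon regulatory factor best known in myeloid cells, by 1.47 ± 0.10. The 2 probe sets of Trim17 differed, at 0.47 and 2.73, as did those of Irf8, at 0.91 and 2.02. Irf1, a related factor, rose by 1.30 ± 0.099. Of the 25 interferon-stimulated genes measured 2 were called higher, with Irf1 among them, and 1 lower. These shares were 8% and 4%, against 5.64% and 9.27% of all genes.

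**Figure D2:**
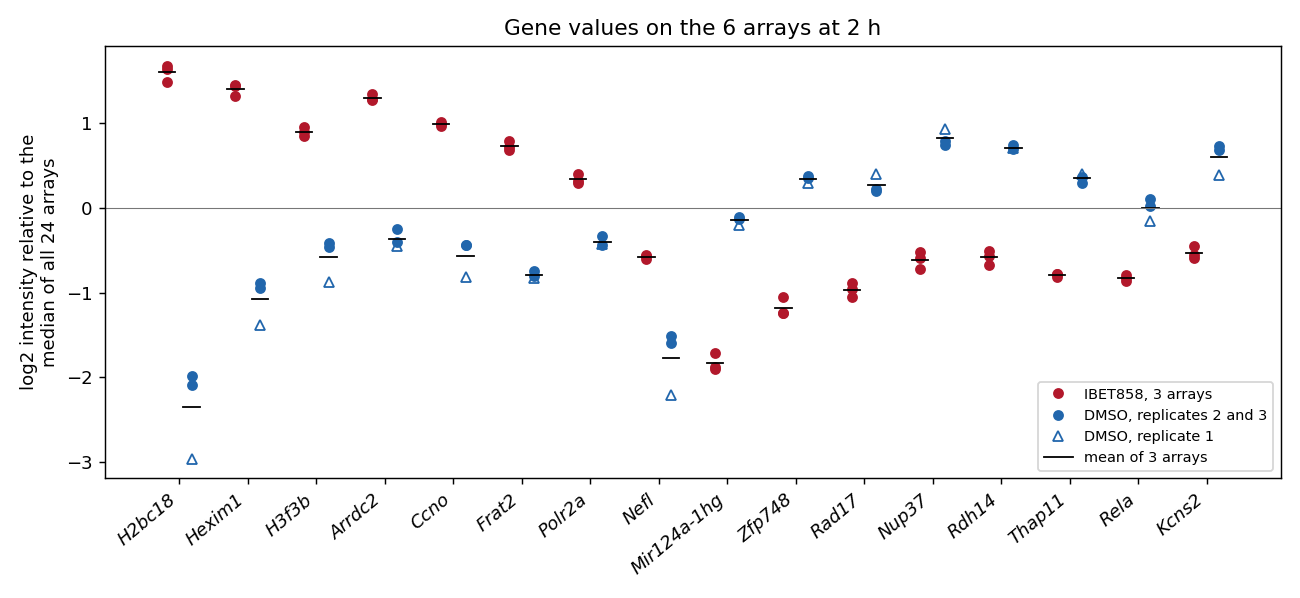
Points show the log2 intensity relative to the median of all 24 arrays (y axis) of 16 named genes on the 3 IBET858 arrays (red, left) and the 3 DMSO arrays at 2 h (blue, right; open triangle, DMSO replicate 1), with black bars for the means of 3 arrays. In all 16 genes the 2 groups are separate, but the highest and lowest genes were named only if their arrays did not overlap. DMSO replicate 1 lies apart from the other DMSO arrays in, for example, H2bc18 (-2.96), Hexim1 (-1.38) and Nefl (-2.21).

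WNT receptors rose together with Frat2. Fzd7 rose to 0.60, 0.64 and 0.59 on the IBET858 arrays, against -0.44, -0.58 and -0.69 on the DMSO arrays (1.18 ± 0.081), with 1 of its 2 probe sets at 2.36 and the other at 0.00. Fzd1 stood at 0.58, 0.61 and 0.55 with IBET858 and at -0.64, -0.38 and -0.47 with DMSO (1.08 ± 0.078). Fzd8 stood at 1.15, 0.93 and 0.85 with IBET858 and at -0.11, -0.14 and -0.17 with DMSO (1.12 ± 0.082). All 3 encode frizzled receptors, and none of them had overlapping groups. The secreted antagonist Sfrp1 rose by 0.61 ± 0.077, Lgr5, a receptor for R-spondins, by 0.54 ± 0.088, and Nkd1, an intracellular inhibitor of the pathway, by 0.43 ± 0.070. Thus receptors and inhibitors were among the 10 of 51 WNT genes that rose (19.6%, against 5.64% of all genes). The list held 1 fall (1.96%, against 9.27%). The 10 rising genes were also called higher in the comparison of both agents with BDNF and again at 12 h. Of all 1026 rises, 69.0% and 78.1% were.

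Long intermediate filaments of the axon were higher in treated cultures. Nefl, the light neurofilament chain, was at -0.60, -0.57 and -0.56 with IBET858 and at -2.21, -1.59 and -1.51 with DMSO, a 2.29-fold rise that was 0.98 on the log2 scale without DMSO replicate 1, the lowest array. Nefm, the medium chain, rose by 0.83 ± 0.10 and Ina, alpha-internexin, by 0.32 ± 0.065. Nefh, the heavy chain, rose by 0.53 ± 0.11 and stood at 0.32 without DMSO replicate 1. Of 19 neuron markers, a list that includes these filament genes, 5 rose (26.3%) and 0 fell, but the list's median was -0.02. Among axon guidance genes 5 of 56 rose (8.93%) and 3 fell (5.36%), not far from the 5.64% and 9.27% of all genes. Unc5b, a netrin receptor, rose by 0.92 ± 0.078 and Ephb3, an ephrin receptor, by 0.90 ± 0.082. Robo2, a receptor for SLIT ligands, fell by 0.73 on the log2 scale.

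Of 23 apoptosis regulators 2 rose and 2 fell (8.7% each), shares near those of all genes, with a median of -0.04. Bcl2l11, which encodes the pro-apoptotic protein BIM, stood at 0.25, 0.16 and 0.12 with IBET858, against -0.64, -0.95 and -1.12 with DMSO (2.12-fold, adjusted p = 1.34e-08), and Pmaip1, the pro-apoptotic NOXA gene, rose by 0.84 ± 0.10. Casp2, an initiator caspase, fell by 0.55 on the log2 scale, and Birc2, an inhibitor of apoptosis, by 0.35. Among 28 known p53 targets 7 rose (25%) and 2 fell (7.14%), against 5.64% and 9.27% of all genes, and the list's median was -0.004. The rises were led by Gadd45a (1.12 ± 0.11), Btg2 (1.11 ± 0.14) and Plk3 (1.05 ± 0.087), which neuronal activity is also known to induce. Of 55 cell cycle genes 8 rose (14.5%) and 2 fell (3.64%), and the median was 0.02. The cyclin gene Ccne2 rose by 1.02 ± 0.14 and the licensing factor Mcm4 fell by 0.73. Cdkn1c, a cyclin-dependent kinase inhibitor, was called higher (0.75) but not without DMSO replicate 1 (0.32, adjusted p = 0.0514) or without IBET858 replicate 3.

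Several host transcripts of small nucleolar RNAs rose, while a host transcript of the neuronal microRNA miR-124 fell. Snhg3 stood at 0.37, 0.28 and 0.16 with IBET858, against -0.74, -0.60 and -0.93 with DMSO (1.03 ± 0.086). Snhg8 (0.69), Snhg7 (0.66), Snhg12 (0.65) and Gas5 (0.59) rose as well. The rise of Snhg12 was 0.34 without DMSO replicate 1. Mir124a-1hg fell to -1.71, -1.87 and -1.91 on the IBET858 arrays, against -0.20, -0.12 and -0.10 on the DMSO arrays, the largest fall among named genes that were called with and without DMSO replicate 1 and did not overlap (-1.69 ± 0.083, adjusted p = 6.92e-12). In this list of 29 transcripts 8 rose and 3 fell (27.6% and 10.3%, against 5.64% and 9.27% of all genes). The probe sets read the host RNA, and mature microRNAs were not measured.

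Falls were spread over many genes of moderate size, and numbered zinc finger genes were prominent among them. These Zfp genes encode DNA-binding proteins with arrays of zinc fingers, many of which carry a KRAB domain and silence transposable elements. Of 329 Zfp genes measured, 142 fell and 11 rose (43.2% and 3.34%), and they made up 8.42% of all genes called lower. The median over the Zfp genes was -0.23, with an interquartile range from -0.44 to -0.05, against a median of 0.02 and a range from -0.08 to 0.11 over all genes. A value below 0 was found for 80.5% of the Zfp genes and 43.7% of all genes. Without DMSO replicate 1, 152 fell and 8 rose. Zfp genes in 1 genomic cluster can be close in sequence, so their probe sets are not fully independent readings.

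**Figure D3:**
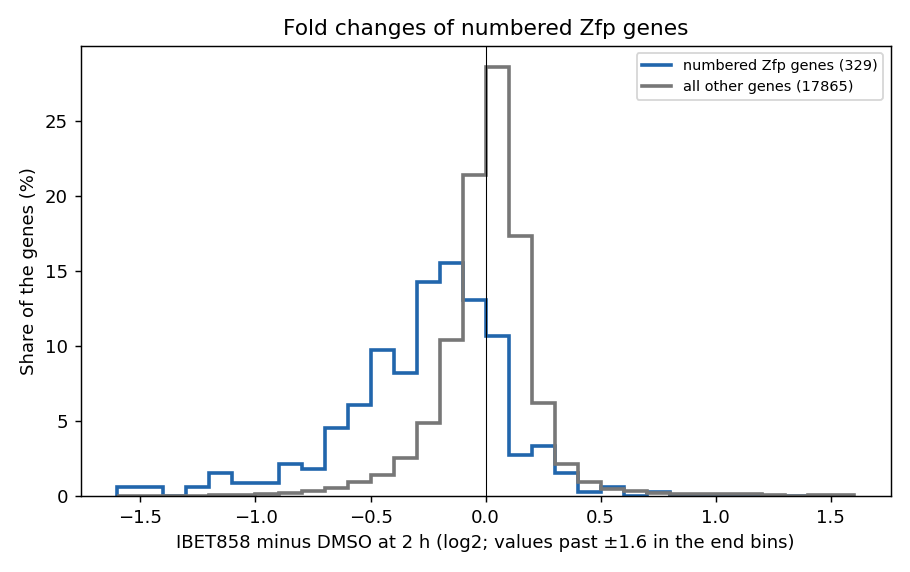
Histogram of the IBET858 minus DMSO difference at 2 h (x axis, log2, bins of 0.1) for the 329 numbered Zfp genes (blue) and the 17865 other genes (grey), as a share of the genes of each set (y axis, %). The Zfp distribution is shifted to the left, with a median of -0.23.

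Zfp748 was at -1.05, -1.24 and -1.24 with IBET858 and at 0.29, 0.38 and 0.36 with DMSO (2.86-fold lower, adjusted p = 1.14e-08). Zfp551 was at -0.89, -0.72 and -0.38 with IBET858 and at 0.80, 0.84 and 0.91 with DMSO. Zfp105 was at -1.48, -1.10 and -1.28 with IBET858 and at -0.05, -0.02 and -0.11 with DMSO. In each of these genes all IBET858 arrays lay below all DMSO arrays by more than the spread within a group, and DMSO replicate 1 did not stand out. The lowest genes were named only if their arrays did not overlap, so this separation is no added support. Zfp799 fell by 1.28 and Zfp449 by 1.16 on the log2 scale. Zbtb39, a BTB-domain zinc finger gene, fell by 1.31.

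Other large falls were in genes of varied roles. Rad17, a loader of the DNA damage checkpoint clamp, was at -0.96, -1.06 and -0.88 with IBET858 and at 0.40, 0.22 and 0.20 with DMSO (2.36-fold lower). Rdh14, a retinol dehydrogenase, was at -0.56, -0.51 and -0.68 with IBET858 and at 0.71, 0.70 and 0.74 with DMSO (2.46-fold lower; its 3 probe sets between -1.85 and -0.67). Thap11, a transcription factor of the THAP family that acts with HCFC1, was at -0.78, -0.78 and -0.82 with IBET858 and at 0.40, 0.37 and 0.30 with DMSO (2.22-fold lower, adjusted p = 3.71e-13). These 3 genes showed tight groups. The membrane protein gene Tm9sf1 fell by 1.33, the ubiquitin ligase gene Trim13 by 1.21, the cyclin gene Ccnj by 1.21, Ccnq, which encodes the cyclin partner of CDK10, by 1.20, the Cdc42 effector Cdc42ep3 by 1.18, the F-box gene Fbxo30 by 1.17 and the centriole gene Stil by 1.16. Cdc42ep3 stood at -0.96 without DMSO replicate 1, on which it was highest.

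Nuclear pore genes fell where they changed at all. Nup37, a scaffold nucleoporin, was at -0.59, -0.72 and -0.51 with IBET858 and at 0.93, 0.79 and 0.75 with DMSO (2.7-fold lower, adjusted p = 1.16e-10). Nup62, of the central channel, fell by 0.70 ± 0.052. Nup98, which also binds chromatin, fell by 0.83, with its 2 probe sets at -1.41 and -0.25. Of 24 nucleoporins 8 were lower (33.3%) and 0 higher by limma, and without DMSO replicate 1 this was 10 and 0. At an unadjusted p under 0.05, 10 were lower and 0 higher.

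Rela and Relb were the NF-kappaB subunit genes called lower. Rela, the p65 subunit, was at -0.82, -0.79 and -0.85 with IBET858 and at -0.15, 0.03 and 0.11 with DMSO, without overlap (1.76-fold lower, adjusted p = 1.32e-09). Relb fell by 0.51 and Nfkbid, a nuclear member of the inhibitor family, by 0.43. These, with Birc2, were the 4 called genes among 36 of the NF-kappaB and inflammatory list, a share of 11.1% near the 9.27% of all genes, and the list's median was 0.01. By limma 0 rose, and 3 were higher at an unadjusted p under 0.05. Kruppel-like factors split, with 3 of 16 higher and 5 lower: Klf4 rose by 0.94 ± 0.11, whereas Klf11 was at -0.14, -0.06 and 0.03 with IBET858 and at 1.11, 0.78 and 0.85 with DMSO (1.95-fold lower). Klf6 fell by 0.43 on the log2 scale.

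Synaptic and channel lists differed in their calls at 2 h. Among 22 glutamate receptor genes and among 37 sodium, calcium and HCN channel genes, limma called 0 in either direction, with medians of 0.12 and 0.00. At an unadjusted p under 0.05, 5 glutamate receptor genes were higher and 1 lower, and 2 channel genes were higher and 2 lower. GABA receptor and synthesis genes had 4 of 15 higher (26.7%, against 5.64% of all genes) and 0 lower, but 1 of 15 higher without DMSO replicate 1, and the call of the receptor subunit Gabrb1 (0.32) was among those lost (0.12, adjusted p = 0.121). Neuropeptides and dense-core vesicle genes had 6 of 29 higher and 0 lower. Potassium channels held 2 rises and 8 falls among 81 genes, shares of 2.47% and 9.88% that lie near or below those of all genes. The falls were led by modulatory and transient-current subunits: Kcns2 was at -0.56, -0.45 and -0.59 with IBET858, against 0.39, 0.69 and 0.74 with DMSO (2.2-fold lower), Kcnf1 fell by 0.81 and Kcna4 by 0.79. Kcnv1 fell by 1.08, and by 0.76 without DMSO replicate 1, on which it was highest. Lrrc4, a postsynaptic adhesion protein, was at -0.30, -0.39 and -0.25 with IBET858 and at 0.45, 0.45 and 0.42 with DMSO (-0.75 ± 0.070). The synaptic organiser Lrrtm4 read 1.95 on DMSO replicate 1 and 0.33 and 0.16 on the others, against -0.05, -0.18 and -0.24 with IBET858. Its call (-0.97, adjusted p = 0.0463) was lost without that array (-0.40, adjusted p = 0.312) and without any 1 of the IBET858 arrays. Of 78 very long neuronal genes 3 rose and 6 fell, with a median of 0.01. Ribosomal protein genes had 4 of 49 higher (8.16%) and 1 lower (2.04%). Respiratory chain genes had 1 of 79 higher (1.27%) and 3 lower (3.80%). Of all genes 5.64% were higher and 9.27% lower.

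**Figure D4:**
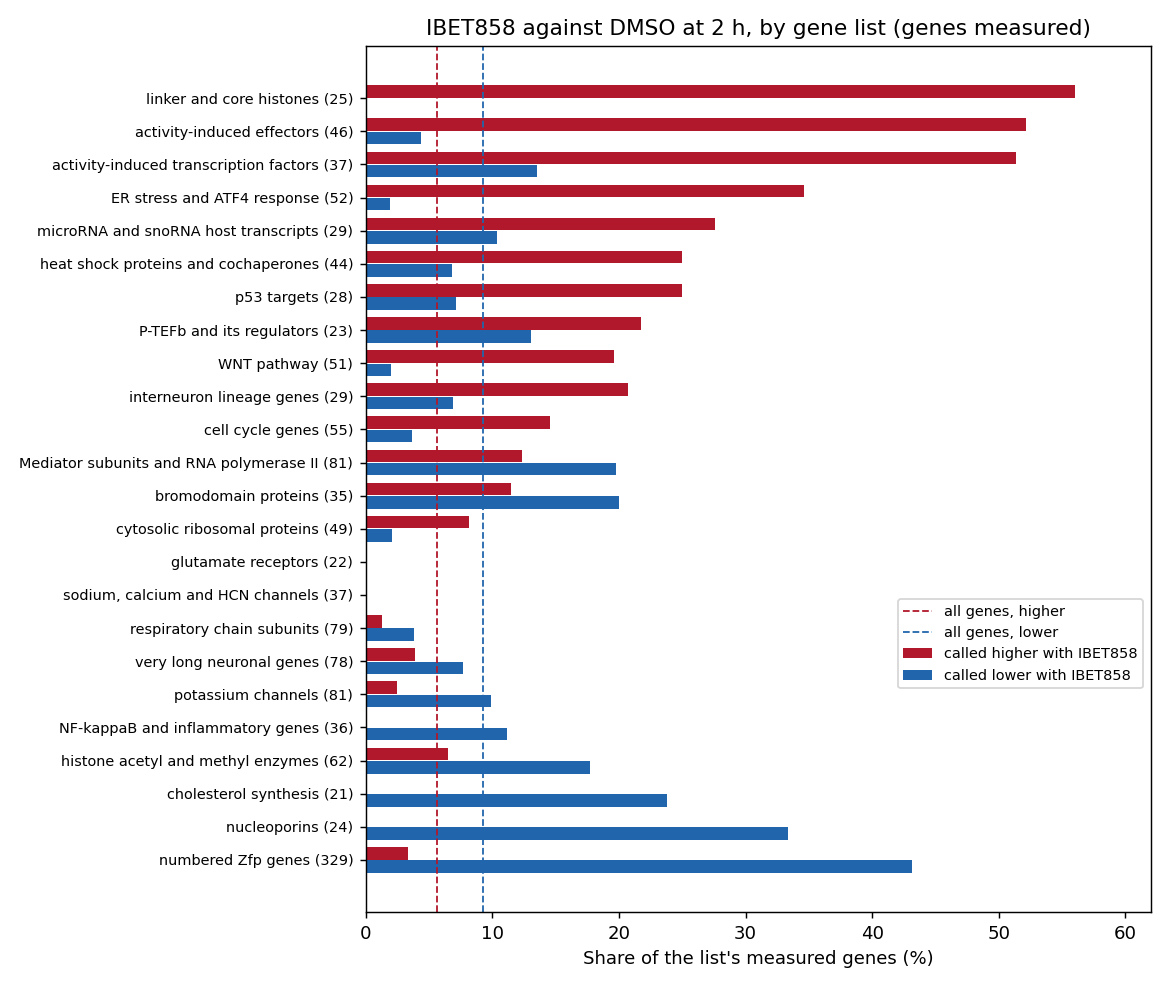
Bars give the share of each list's measured genes (number in brackets; x axis, %) called higher (red) and lower (blue) with IBET858 against DMSO at 2 h, and dashed lines the shares over all genes (5.64% and 9.27%). Histones (56%) and activity-induced genes stand highest for rises, numbered Zfp genes (43.2%) for falls, and glutamate receptors and sodium, calcium and HCN channels have no bar.

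Bdnf, the gene for the factor used in the study's other arm, depended on DMSO replicate 1. It read -0.62, -0.87 and -0.53 with IBET858, against -1.36 on DMSO replicate 1 and 0.14 and 0.34 on the other DMSO arrays. With all arrays it differed by -0.38 (adjusted p = 0.388), and without DMSO replicate 1 it was lower by -0.91 (adjusted p = 3.19e-05). Vgf, a neuropeptide precursor, showed the opposite dependence in size: it read -0.44, -0.47 and -0.59 with IBET858, against -2.81, -1.27 and -1.19 with DMSO, and its rise was 1.25 with all arrays and 0.73 without replicate 1. Activity-regulated genes as a group moved with this array: the median over the 46 activity-induced effector genes was 0.24 lower on DMSO replicate 1 than on the mean of the other DMSO arrays (-0.24), and over the 37 activity-induced transcription factors 0.33 lower (-0.33). Their counts without it were 23 higher and 5 lower effectors and 19 higher and 8 lower factors, against 24 and 2 and 19 and 5 with all arrays. Many other lists shifted without that array too. Examples, as higher and lower genes without it, are ER stress genes (13 and 4, against 18 and 1 with all arrays), neuropeptides (3 and 1, against 6 and 0), MAP kinase feedback regulators (9 and 3, against 8 and 1), cholesterol synthesis (1 and 2, against 0 and 5) and the P-TEFb list (4 and 4, against 5 and 3). Among lists counted elsewhere in the text, the values without it were 11 and 3 for WNT genes, 8 and 4 for cell cycle genes, 8 and 1 for p53 targets, 4 and 2 for axon guidance, 1 and 9 for potassium channels, 3 and 2 for ribosomal proteins, 0 and 2 for the respiratory chain, 0 and 4 for very long genes, 2 and 0 for interferon-stimulated genes and 0 and 0 for progenitor markers.

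The genes that moved most when DMSO replicate 1 was left out had no call with all arrays. Cadps2, a dense-core vesicle priming factor, read -2.41 on that array and 0.64 and 0.66 on the other DMSO arrays, against 0.74, 0.66 and 0.64 with IBET858, so its difference was 1.05 with it and 0.03 without it. Rgs13, a regulator of G protein signalling, read -2.94 there and 0.00 and 0.09 on the others. On the same array Tafa1, a secreted neuronal protein, Klhl1, an actin-binding protein of neurons, Kctd4, Ccn3, a matricellular protein, and the fibronectin gene Fn1 read between 2.30 and 3.28, while the other DMSO arrays read between -0.09 and 1.03 for these 5 genes.

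Marker lists of other cell types were short, with calls to be read against those of all genes (5.64% higher, 9.27% lower). Astrocyte markers had 2 of 15 higher (13.3%), Sox9 at 0.90 ± 0.14 and Glul at 0.30, and 0 lower. Microglia markers had 1 of 14 higher (7.14%), Cd68 at 1.04 ± 0.089, and vascular and fibroblast markers 1 of 17 (5.88%). Progenitor markers had 0 higher and 1 lower of 14 (7.14%). Oligodendrocyte markers had 0 of 12 by limma (0 higher and 1 lower at an unadjusted p under 0.05). Cd68, a lysosomal glycoprotein, read 0.17, 0.21 and 0.20 with IBET858 and -1.08, -0.79 and -0.68 with DMSO. In bulk samples, fewer cells of a type and less RNA per cell cannot be told apart. The array medians of the astrocyte list ran from -0.03 to 0.01 with IBET858 and from -0.02 to 0.36 with DMSO, with replicate 1 above the other DMSO arrays by a median of 0.32. Those of the interneuron markers ran from 0.08 to 0.10 with IBET858 and from -0.43 to -0.04 with DMSO, with replicate 1 lower by a median of 0.50 (-0.50). The median difference of the 12 interneuron markers was 0.18 with all arrays and 0.04 without replicate 1, and 3 of them rose and 0 fell. Of 29 interneuron lineage genes 6 rose and 2 fell, and of 17 excitatory neuron markers 1 rose and 4 fell. Without replicate 1 the counts were 5 and 2 for the lineage genes and 0 and 3 for the excitatory markers. The median of the lineage genes was 0.15 with all arrays and 0.09 without replicate 1. Interneuron genes Dlx5, Dlx2 and Dlx6, homeobox factors of that lineage, were called higher: Dlx5 read 0.22, 0.16 and 0.16 with IBET858 and -1.16, -0.61 and -0.49 with DMSO (0.93 ± 0.11), and 0.73 was its rise without replicate 1. Excitatory neuron genes Neurod1 and Emx1 fell by 0.52 and 0.33, and Neurod1 by 0.32 without replicate 1. The call of Emx1 was lost without IBET858 replicate 1. The part of cell composition in these values was not tested.

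The 2 h response was then set beside the 2 comparisons that share no array with it. Of the 1026 rises, 708 (69.0%) were also higher and 19 lower where IBET858 was added to BDNF, in which 12.2% of all genes were higher and 14.9% lower, and they were 32.0% of the genes higher there. At 12 h of IBET858 alone, 801 (78.1%) of them were higher and 34 lower, where 22.9% of all genes were higher and 25.8% lower, and they were 19.2% of the genes higher there. Of the 1686 falls, 1214 (72.0%) were lower and 25 higher with BDNF present, and they were 44.7% of the genes lower there. At 12 h only 878 (52.1%) of the falls were lower and 240 were higher, and they were 18.7% of the genes lower there.

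Members of some groups that kept their change were counted, to be read against all called genes. Of the 14 histone genes that rose, 13 were higher with BDNF present and 13 at 12 h, and Hexim1 was at 2.88 ± 0.098 with BDNF present and 2.76 ± 0.098 at 12 h. Among the 142 Zfp falls, 87 were lower and 5 higher with BDNF present, and 70 were lower and 21 higher at 12 h. Of all 1686 falls, 72.0% were lower with BDNF present and 52.1% at 12 h. The Zfp falls thus kept their change at 12 h about as often as falls in general. The median over all 329 Zfp genes was -0.13 with BDNF present and -0.06 at 12 h, where 35.6% were lower and 21.3% higher, closer to the shares of all genes. All 8 nucleoporin falls were lower with BDNF present, and at 12 h 3 were lower and 3 higher. Nup98 had a difference of -1.47 with BDNF present and of 0.25 at 12 h.

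Single genes ranged from changes kept at 12 h to changes lost by then. Mir124a-1hg had a difference of -2.36 ± 0.080 with BDNF present and of -0.05 (adjusted p = 0.615) at 12 h, and the change of effect between 12 h and 2 h was 1.63 (adjusted p = 1.48e-09). Such tests of a change of effect reuse the 2 h arrays on which the gene was picked. Trim13 had a difference of -1.16 with BDNF present and of -0.11 (adjusted p = 0.219) at 12 h. Zfp105 had one of -0.84 with BDNF present and of -0.05 (adjusted p = 0.637) at 12 h. Klf11 (-1.02 at 12 h), Hs3st1, a heparan sulfate sulfotransferase (-1.15 at 12 h), and Kcns2 (-1.12 at 12 h) were still lower. Among the rises, Ckmt2, the mitochondrial creatine kinase of muscle, read 2.28, 2.03 and 2.32 at 2 h of IBET858, against 0.05, -0.06 and 0.26 with DMSO, and differed by 3.35 with BDNF present and by 0.21 (adjusted p = 0.163) at 12 h. Lag3, an immune checkpoint receptor, rose at 2 h by 1.97 and at 12 h by 0.49.

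**Figure D5:**
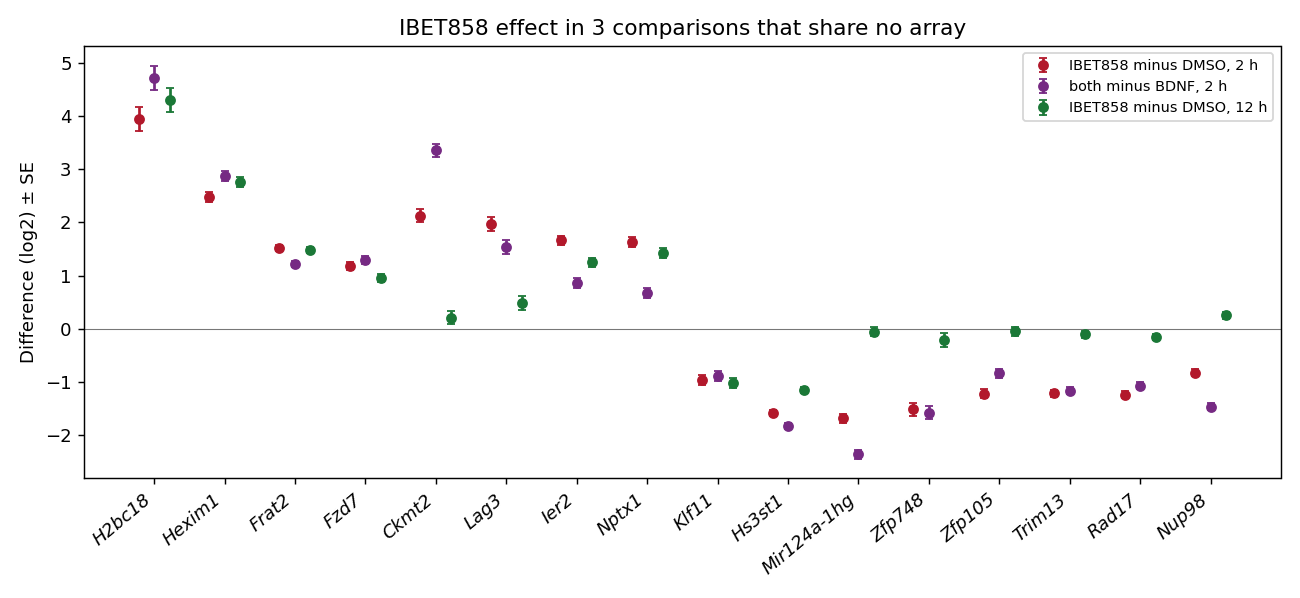
Differences (log2, points; bars, standard error of the model) for 16 named genes in 3 comparisons: IBET858 minus DMSO at 2 h (red), both agents minus BDNF at 2 h (purple) and IBET858 minus DMSO at 12 h (green). H2bc18, Hexim1, Frat2 and Fzd7 are high in all 3, whereas Ckmt2 (0.21) and Mir124a-1hg (-0.05) lie near 0 at 12 h.

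Called lower at 12 h, where 25.8% of all genes were lower and 22.9% higher, were 13 of the 22 glutamate receptor genes, 17 of the 37 sodium, calcium and HCN channel genes and 56 of the 78 very long genes (71.8%), with medians of -0.46, -0.14 and -0.47. The change of effect from 2 h to 12 h was called lower for 14, 14 and 48 of them, where 17.4% of all genes were called lower and 15.8% higher. GABA receptor subunit Gabrb2 was higher by 0.24 at 2 h and lower at 12 h (-1.05), and that change of effect was -1.29 (adjusted p = 8.12e-10).

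Some activity-regulated genes rose with the inhibitor alone but had no call for it with BDNF present, and others had a larger fall with BDNF present. Of the 46 effector genes the inhibitor gave 16 higher and 10 lower with BDNF present and 24 and 2 without it. Of the 37 transcription factors it gave 15 higher and 13 lower with BDNF present and 19 and 5 without it. Over all genes it gave 12.2% higher and 14.9% lower with BDNF present, and 5.64% and 9.27% without it. Arc, a synaptic plasticity gene, read -1.29, -1.12 and -1.21 with IBET858 and -3.04, -2.37 and -2.47 with DMSO, a rise of 1.42 ± 0.14, and with BDNF present the inhibitor's difference was 0.17 (adjusted p = 0.383). The change of effect, with BDNF minus without, was -1.25 for Arc (adjusted p = 0.000154), -1.22 for the zinc finger factor Egr1 (adjusted p = 4.83e-07) and -1.23 for the kinase gene Pim1 (adjusted p = 4.35e-07). BDNF alone, against the same DMSO arrays, gave 5.59 for Arc, 2.61 for Egr1 and 3.71 for Pim1. Over the 46 effector genes 16 had a more negative and 5 a more positive difference for the inhibitor with BDNF. Over the 37 transcription factors these were 14 and 0, where 5.29% and 3.11% of all genes did. These list counts were not computed without DMSO replicate 1, on which both lists were lower. Nab2, a corepressor of EGR factors, fell by 0.65 without BDNF, and its difference with BDNF present was -2.50. Conversely Gtf2b and Taf4b rose further with BDNF present, by 1.54 and 2.82, and their changes of effect were 0.90 and 1.36.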

How the data were processed

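RNA was measured on Affymetrix mouse expression arrays. The deposited values are log2 intensities that the authors made with RMA, per the submitters' processing notes, and each probe set had been centred on its median over the 24 arrays (45101 of 45101 within 1e-06). RMA sets all arrays to 1 distribution, so a change in total RNA would be hidden. Probe sets naming 1 gene in the platform annotation (34958) were averaged per gene, which gave 18194 genes, and no dim genes were removed. Symbols were updated through RefSeq (GRCm38.p6; 34754 matched). One limma model (3.58.1, R 4.3.3) held the 8 group means over 24 arrays with 16 residual degrees of freedom. Tests were two-sided, with Benjamini-Hochberg adjustment over all genes and a threshold of 0.05. Named genes were the 25 highest and 25 lowest called both with and without DMSO replicate 1 and without overlapping arrays, up to 6 per list, the P-TEFb list, BET genes, Fos, Egr1, Arc and Bdnf, 10 by move without that array and 10 per direction for each change of effect. The members, lists and this rule were chosen with earlier results of these data known. A simulation used independent normal noise with each gene's spread equal on all arrays. In it, 80% of genes changed by 0.5 and 100% of those changed by 1 (log2) were recovered, with 10 false calls. No simulated array stood apart as DMSO replicate 1 did, so these shares may not carry over to the real comparison. Alternatives were each array left out, a replicate block, array weights, only the arrays compared, centred arrays, unique probe sets, single probe sets and a threshold of 0.01.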

Additional observations from a re-analysis of the deposited data

Results flagged for a closer look

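The effect of IBET858 at 12 h differed from that at 2 h, by a test of the difference itself in limma, in 2871 genes that were higher (15.8% of those tested) and 3159 that were lower (17.4%). Among genes called at 2 h, the change of effect (12 h minus 2 h) was most negative for the calcium sensor gene Mctp1 (-2.41), the growth factor gene Pdgfc (-2.30), the fibrillin gene Fbn2 (-2.12), Ckmt2 (-1.92), the receptor gene Met (-1.71), Lrrtm4 (-1.58), the kinesin gene Kif26b (-1.54), the fucosyltransferase gene Fut9 (-1.53), Lag3 (-1.49) and the adaptor gene Sla (-1.42). It was most positive for the transaminase gene Kyat3 (1.88), Mlf1 (1.82), the tektin gene Tekt2 (1.78), the histone gene H2ac19 (1.77), the HMG-box gene Bbx (1.74), Hao1 (1.67), Mir124a-1hg (1.63), the scaffold gene Slc9a3r1 (1.60), the histone gene H2aw (1.60) and the lysosomal transporter gene Slc66a1 (1.54). Mctp1 was higher at 2 h by 0.66 and lower at 12 h (-1.75), and its 2 h call was lost without DMSO replicate 1 (0.32, adjusted p = 0.177) and without IBET858 replicate 1 or 2. Slc66a1 was lower at 2 h (-0.44) and higher at 12 h by 1.10, and its 2 h call was lost without DMSO replicate 1 (-0.30, adjusted p = 0.0506). The 20 changes of effect themselves were called without that array.

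The effect of IBET858 at 2 h with BDNF differed from that without BDNF, again by a test of the difference, in 566 genes that were higher (3.11%) and 963 that were lower (5.29%). The change of effect (with BDNF minus without) was most negative for Ier5l (-2.38), the chemokine receptor gene Cxcr4 (-2.04), Tmem74 (-1.95), the small GTPase gene Rasl11a (-1.92), Nab2 (-1.84), Kcnf1 (-1.62), the Nogo receptor-like gene Rtn4rl2 (-1.46), Tent5a (-1.42), Sertad1 (-1.36) and Rasl11b (-1.35). It was most positive for Rcc1, the Ran exchange factor (2.76), the RNA-binding protein gene Caprin2 (2.66), the shedding protease gene Adam17 (2.12), the mitochondrial polymerase subunit Polg2 (2.11), Fam83d (2.00), the glucose transporter gene Slc2a2 (1.50), Mettl18 (1.46), the polyamine enzyme gene Sat1 (1.39), Taf4b (1.36) and Tmem168 (1.33). Ier5l stood out by direction: with BDNF present it was lower (-1.08), and without BDNF it was higher by 1.30. Tmem168 was higher by 0.93 with BDNF and lower without it (-0.40), and Mettl18 by 0.63 and -0.83.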

How the results depend on the processing

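No called value of a named gene changed sign under the alternatives that gave gene-level values. Signs were not compared over single probe sets, and the threshold of 0.01 cannot change a sign. The counts for IBET858 against DMSO at 2 h (1026 higher, 1686 lower) became 2948 and 2880 with array weights, 638 and 1087 with only the arrays compared, 1576 and 2841 over single probe sets, and 648 higher at an adjusted p under 0.01. They were 878 and 1789 with arrays centred on their median and 1023 and 1666 with the replicate block. Replicate numbers paired the samples in neither labels nor data (correlations of same-numbered deviations -0.14, -0.13 and 0.07, with 1 of 3 IBET858 arrays closest to its own number). With each of the 6 arrays left out in turn they ran from 796 to 1155 higher and from 1343 to 1717 lower. The genes higher with both agents against BDNF fell to 1325 at 0.01. Leaving out single arrays gave 1720 to 2077 higher and 2387 to 2480 lower there, and 3673 to 4536 higher and 4335 to 4596 lower at 12 h. For the change of effect with time these ranges were 2616 to 3020 and 2904 to 3318, including the fit without IBET858 at 12 h replicate 3, chosen after seeing the data. For the change of effect with BDNF they were 457 to 642 and 776 to 1062, with 1199 and 1533 under array weights and 320 and 584 at 0.01. The array weight of DMSO replicate 1 was 0.170. Of 328 named genes, 45 lost their 2 h call without that array and 2 gained one, 84 lost it with only the arrays compared, and 0 changed under the replicate block. The cause of these shifts was not tested. Lrrtm4's change of effect with time missed the threshold with only the arrays compared (-1.58, adjusted p = 0.0626).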
